A study of Homo sapiens with 24 samples.

Results

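Caveolae are small flask-shaped pits of the plasma membrane, and the caveolins and cavins are the proteins that build them. The data described here are the 7 genes of this coat on 24 human microarrays: the caveolins CAV1, CAV2 and CAV3, the cavins PTRF (cavin-1), SDPR (cavin-2) and PRKCDBP (cavin-3), and the neck ATPase EHD2. The members were chosen by symbol, as every non-control spot whose gene name in the scanner output matched 1 of these symbols, and are 7 of the 19807 genes named on both array designs. They were read by 10 probes of the 35649 that both array designs share, on 30 spots of an array of the earlier design and 28 of the later. Their measured values played no part in that rule.

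Each array held RNA of a treated and of a control culture of the same line, labeled with Cy5 and Cy3 in that order on every array. The prostate cancer lines were PC3, DU145 and LNCap, the renal cell carcinoma lines A498 and 786O, and the head and neck squamous cell carcinoma lines FaDu and SAS, all established. Against control siRNA stood si-CAV2 (A498, 786O), si-LAMB3 (FaDu, SAS) and si-GOLM1 (PC3, DU145). Against control miRNA stood miR-145 (PC3, DU145, LNCap), miR-143 (PC3, DU145), miR-27b (PC3, A498, 786O), miR-23b and miR-24 (PC3), miR-29a (SAS) and miR-375 (FaDu). The soy isoflavone genistein (PC3, DU145) and the chemokine CXCL10 (786O, 12 h and 24 h) were set against cells labelled as untreated, and the flavone wogonin (SAS, FaDu) against DMSO. The methods of the study name a vehicle control for genistein. Each treatment had 1 array in a line and dyes were not swapped, so a dye effect of a probe is part of its ratio. The 2 or 3 arrays of a treatment are different lines, and p-values of treatments measure the spread between lines. Those of differences between lines measure the spread between control channels of the same line. Values come from whole cultures, in which fewer cells that express a gene and less RNA of it in each cell cannot be told apart.

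CAV1 is the structural caveolin of most tissues, CAV2 joins it in hetero-oligomers, and CAV3 is the caveolin of muscle. PTRF is needed for caveolae to form, SDPR helps to shape their membrane, PRKCDBP binds to the coat through PTRF, and EHD2 sits as a ring at the neck and holds the pit at the surface. In prostate cells that lack PTRF, CAV1 is known to lie in the membrane without forming caveolae, which is why PC3 is a common model for cells with a caveolin and no cavin coat.

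CAV1, CAV2 and CAV3 are paralogs, and the probes that lie in their coding stretches are shown because the results below assign signal to these genes by such letters. On hg19 they lie on the forward strand at chr7:116199001-116199060 (CAV1), chr7:116140389-116140448 (CAV2) and chr3:8787416-8787475 (CAV3). No run of 16 bases of any of these probes was found in a probe of another gene among the 35649. Probes were compared only with probes, so binding of paralog RNA to a probe was not tested.
CAV1 A_24_P12626: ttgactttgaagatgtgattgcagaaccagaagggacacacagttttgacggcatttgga
CAV2 A_23_P123071: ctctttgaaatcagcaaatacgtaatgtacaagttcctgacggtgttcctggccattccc
CAV3 A_24_P251599: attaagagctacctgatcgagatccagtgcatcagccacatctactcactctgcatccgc

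The other probes were CAV1 A_23_P134454 at chr7:116200742-116200801, CAV2 A_24_P925040 at chr7:116148261-116148320, SDPR A_23_P72668 at chr2:192700102-192700161, PRKCDBP A_23_P203475 at chr11:6340210-6340269 and EHD2 A_24_P156113 at chr19:48246224-48246283. PTRF was read by A_23_P394064 at chr17:40554477-40554536 and by A_33_P3280066 at chr17:40555825-40555884, both on the reverse strand, as are the SDPR and PRKCDBP probes. A_23_P134454 and A_23_P123071 were printed on 10 spots an array, so their values average over technical repeats, and the PTRF, SDPR, PRKCDBP and EHD2 values rest on 1 spot each. The CAV2 probe A_24_P925040 starts 2755 bases into the transcript, far behind the start of A_23_P123071 at base 406, and its GC content was 21.7%. It is called the distal CAV2 probe below.

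CAV2 and CAV1 are neighbours on chromosome 7, in this order on the forward strand, and their levels went together across the lines. The 250 bases before a start of each gene are therefore shown, from RefSeq on GRCh38.p14, at chr7:116499488-116499737 (CAV2) and chr7:116524759-116525008 (CAV1). Capitals mark the motif GGGCGG, searched on both strands, which stood 6 times before CAV2 and 3 times before CAV1. Of all promoter windows of this length 42.6% held it. CG pairs numbered 35 before CAV2, a number that 5.8% of windows reached, and 18 before CAV1, which 36.8% reached, against a median of 11. Another CAV2 start had 3 motifs and 27 CG pairs (17.7% of windows). Other CAV1 starts had 3 and 2 motifs and 16 and 29 CG pairs (41.0% and 14.1%). The order of the genes in CG pairs thus depends on the start.
CAV2 promoter: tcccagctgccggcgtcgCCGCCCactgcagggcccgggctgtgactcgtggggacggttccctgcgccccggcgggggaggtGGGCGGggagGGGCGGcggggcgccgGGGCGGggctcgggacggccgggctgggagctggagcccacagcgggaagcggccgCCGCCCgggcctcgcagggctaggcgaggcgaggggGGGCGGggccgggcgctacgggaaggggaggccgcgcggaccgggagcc
CAV1 promoter: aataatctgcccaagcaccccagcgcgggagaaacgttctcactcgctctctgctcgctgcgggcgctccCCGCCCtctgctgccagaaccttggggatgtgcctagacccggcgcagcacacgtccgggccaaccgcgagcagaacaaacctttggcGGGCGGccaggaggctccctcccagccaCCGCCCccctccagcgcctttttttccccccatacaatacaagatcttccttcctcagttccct

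The mature forms of 5 transfected miRNAs are shown: miR-27b, with which CAV1 was called, and those run in 1 line, whose arrays are described below. The labels do not name an arm, and the 3p arms of RefSeq are printed with the seed, bases 2 to 8, in capitals. The 5 seeds differ from each other. No member probe contained the 7-base match to any of these 3p seeds, which says nothing of the rest of the transcripts.
miR-27b-3p: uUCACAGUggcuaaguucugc
miR-24-3p: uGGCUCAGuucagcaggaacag
miR-23b-3p: aUCACAUUgccagggauuaccac
miR-29a-3p: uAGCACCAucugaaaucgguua
miR-375-3p: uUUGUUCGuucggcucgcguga

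Between 53.2% and 67.6% of spots on an array were well above background in Cy3 and between 54.2% and 68.9% in Cy5, by the flag of the scanner software. A probe was counted as measured where this held in at least 1 channel. Of 704 member spots, 25 carried outlier flags and were left out, and none was saturated. The 5 prostate markers were all above background in LNCap, while 2 of 5 were so in every PC3 control channel and 3 of 5 in every DU145 channel. In the renal lines 3 of 5 were so in A498 and 2 of 5 in 786O, so these counts do not set PC3 and DU145 apart from them. The 5 renal markers were above background in every A498 channel and 4 of 5 in 786O, and the 5 squamous markers in every FaDu channel and 4 of 5 in SAS. Among the siRNA targets, GOLM1 fell with si-GOLM1 (log2 ratio -4.15 in PC3, -3.02 in DU145, adjusted p = 0.00132 by limma), whereas LAMB3 did not pass the test with si-LAMB3 (-2.50 in FaDu, -0.89 in SAS, adjusted p = 0.161).

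The control channels gave the level of each gene in untreated or control-transfected cells of the 7 lines. Levels are log2 Cy3 signals after quantile scaling between arrays, from 7 channels of PC3, 4 each of DU145 and 786O, 3 each of FaDu and SAS, 2 of A498 and 1 of LNCap. They may be compared between lines for 1 probe, not between probes. CAV1 and CAV2 were bright in 6 lines and were not well above background in LNCap. The cavins and EHD2 followed another order: PTRF by its probe A_23_P394064 was not well above background in PC3 and was measured in LNCap.

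**Figure D1:**
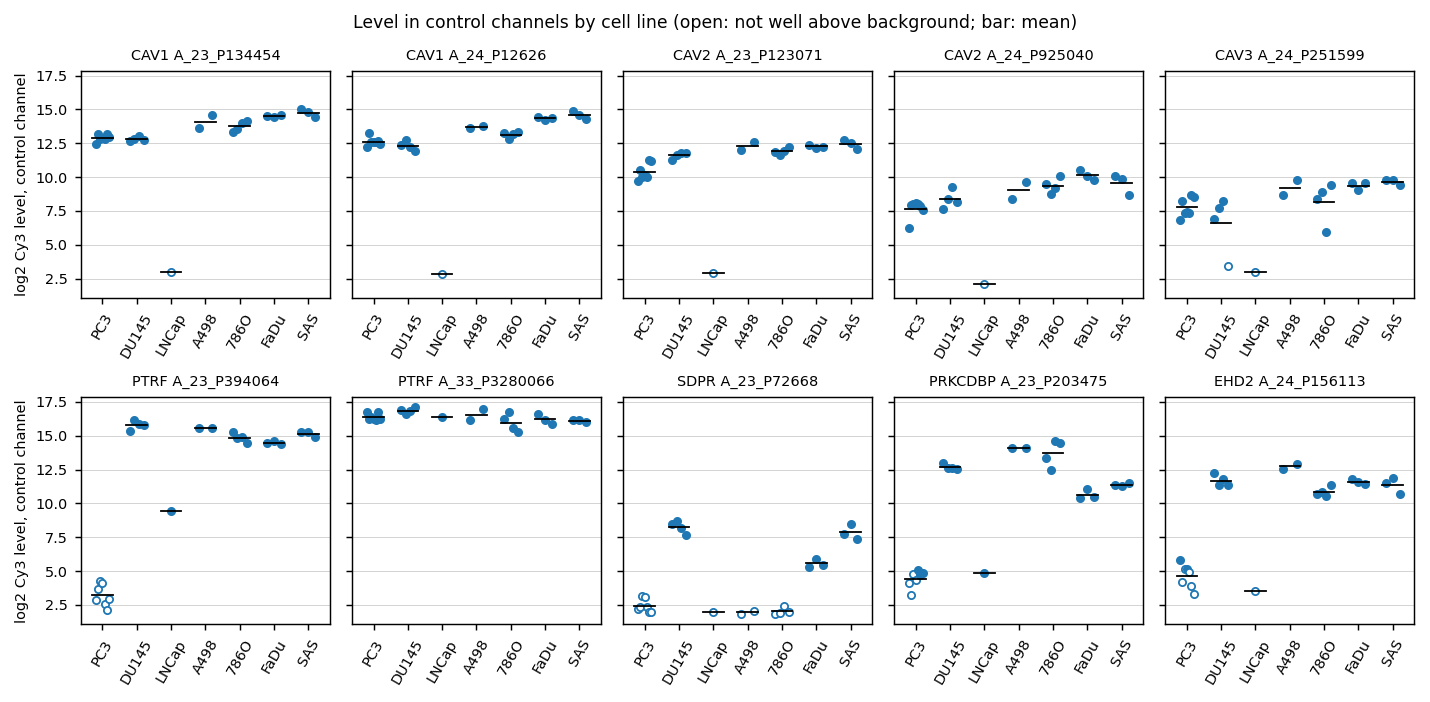
Level of each caveolin, cavin and EHD2 probe in the control channel of 24 arrays, by cell line. The vertical axis is the log2 Cy3 level, each point is 1 array, open points were not well above background and bars are means. CAV1 and CAV2 stood at 2.09 to 2.96 in LNCap, and PTRF probe A_23_P394064 at 2.14 to 4.24 in the 7 PC3 channels against 15.34 to 16.20 in DU145.

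CAV1 was highest in the squamous lines. By probe A_23_P134454 the SAS channels read 14.47, 14.79 and 15.05 and the FaDu channels 14.47, 14.54 and 14.61. The renal channels read 13.62 and 14.57 in A498 and 13.30, 13.53, 14.03 and 14.16 in 786O. The PC3 channels ran from 12.46 through a median of 12.88 to 13.17, the DU145 channels from 12.66 to 13.03, and LNCap stood at 2.96. The order of the means was SAS 14.77, FaDu 14.54, A498 14.10, 786O 13.75, PC3 12.90, DU145 12.80 and LNCap. The pairs SAS and FaDu, A498 and 786O, and PC3 and DU145, neighbours in this order, did not pass the test (FaDu minus SAS -0.21, adjusted p = 0.560, A498 minus 786O 0.44, adjusted p = 0.209, PC3 minus DU145 0.15, adjusted p = 0.575, all by limma with slide as a block).

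Between these pairs of lines the CAV1 difference was larger than the spread between channels. The SE and p-values measure spread between control channels of the same lines, not between lines of a tissue. LNCap is not part of the prostate side. The 6 squamous channels exceeded those of PC3 and DU145 by 1.91 (SE 0.18, adjusted p = 2.23e-07 by limma) and the 6 renal channels exceeded them by 0.997 (SE 0.15, adjusted p = 4.65e-05). The other CAV1 probe gave 2.03 and 0.99. On slide 1 alone, where 2 renal channels stood against 4 of the prostate lines, the renal difference was 0.69 and did not pass (adjusted p = 0.254), and on slide 3 alone it was 1.27 (adjusted p = 0.00838). The LNCap value was then taken as the lowest signal of its array that was well above background. With it the PC3 mean exceeded the LNCap channel 781-fold and the SAS mean did so 2857-fold. Folds with such a stand-in for a dim channel are called floor folds below. They depend on the background correction and are not lower limits. LNCap minus PC3 and DU145 came to -9.72 by limma (adjusted p = 6.00e-14), or -6.34 with normexp, with 1 LNCap channel that was assumed to vary like those of the other lines.

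CAV2 had the same order at the ends. By probe A_23_P123071 the PC3 channels ran from 9.73 through 10.12 to 11.24 and the DU145 channels from 11.28 to 11.79, so these lines did not overlap. PC3 was lower than DU145 by limma (-0.98, SE 0.21, adjusted p = 0.00113), and on slide 1 and slide 3 taken alone the difference was -1.33 and -0.59 and did not pass (adjusted p = 0.140 and 0.149). The renal lines (11.65 to 12.58) and the squamous lines (12.09 to 12.77) exceeded PC3 and DU145 by 0.90 and 1.75, with adjusted p = 0.000360 and 2.00e-06. The renal call was lost on slide 1 alone (1.11, adjusted p = 0.144). LNCap read 2.89, and the floor fold over it was 138 for PC3 and 321 for DU145.

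The CAV3 probe was above background in lines that are not of muscle, and it was dimmer and more variable. Whether it reads only CAV3 RNA was not tested. Its channels read 6.83 to 8.68 in PC3, 9.03 to 9.54 in FaDu, 9.39 to 9.81 in SAS, 8.65 and 9.82 in A498 and 5.97 to 9.38 in 786O. In DU145 they read 6.92, 7.75 and 8.24, and the other channel at 3.43 was not above background, nor was LNCap at 2.999. The squamous lines exceeded PC3 and DU145 by 2.69 (SE 0.78, adjusted p = 0.00971), a call that was lost when the PC3 controls of the miR-23b, miR-24 and miR-27b arrays were averaged to 1 (2.62, adjusted p = 0.0670). Over the 24 channels, which share LNCap and its low values, the CAV3 level correlated with that of CAV1 at r = 0.74.

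PTRF, the cavin without which caveolae do not form, separated PC3 from the other 6 lines by A_23_P394064. All 7 PC3 channels were not well above background (2.14 to 4.24). The DU145 channels read 15.34 to 16.20, A498 15.55 and 15.61, 786O 14.44 to 15.31, FaDu 14.42 to 14.60, SAS 14.92 to 15.30, and LNCap 9.46. The floor fold over PC3 was 4064 for DU145 and 50.1 for LNCap. The fitted difference PC3 minus DU145 was -12.83 (adjusted p = 2.40e-15 by limma), and -9.48 with normexp, whose offset of 50 raises dim values. By A_33_P3280066 every channel of every line read between 15.30 and 17.11, PC3 included (16.17 to 16.78), and PC3 minus DU145 was -0.30 with adjusted p = 0.377. The probes of PTRF thus disagreed in PC3, and averaging them turned the sign of the renal and squamous differences of A_33_P3280066.

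PRKCDBP and EHD2 had low PC3 values as well. PRKCDBP, the cavin that also binds protein kinase C delta, read 3.21 to 5.11 in PC3, where 3 of 7 channels were above background, and 12.56 to 12.98 in DU145. The fitted difference was -8.42 (adjusted p = 7.73e-12 by limma), and -6.11 with normexp. EHD2, the ATPase of the neck, read 3.32 to 5.79 in PC3, with 2 of 7 channels above background, and 11.34 to 12.24 in DU145 (fitted difference -7.29, adjusted p = 5.41e-11, and -4.76 with normexp). Since most PC3 channels of both genes held only background, these differences depend on how background is treated and are no exact folds. In LNCap PRKCDBP read 4.84, above background, and EHD2 3.53, not above it. A498 exceeded 786O in EHD2 (12.58 and 12.89 against 10.54 to 11.35, difference 1.77, adjusted p = 0.0119), a call that was lost without the A498 control channel of the miR-27b array (1.28, adjusted p = 0.2495) and on slide 1 alone (1.89, adjusted p = 0.520).

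SDPR, the cavin that bends membranes into tubules when abundant, was measured in the control channels of 3 lines. It read 7.68 to 8.72 in DU145, 7.37 to 8.47 in SAS and 5.33 to 5.92 in FaDu, and was not well above background in any PC3, LNCap, A498 or 786O channel. The floor fold of DU145 was 26.8 over PC3 and 22.9 over 786O. With normexp PC3 minus DU145 was -2.29, a smaller difference, so these folds depend on how background is treated. FaDu was lower than SAS by 2.10 on the log2 scale (-2.10, SE 0.31, adjusted p = 5.62e-05), and the 3 channels of each line did not overlap.

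Most of these contrasts called a large part of all probes, so the counts of member probes are to be read against that. For LNCap minus PC3 and DU145, 8 of 10 member probes were lower and none higher, where 29.2% of all tested probes were called. Among them, PRKCDBP read 4.84 in LNCap and 4.45 on average in PC3, SDPR 2.01 and 2.45, and EHD2 3.53 and 4.63. Most PC3 channels of these genes were not above background, so their calls rest on high DU145 values. For PC3 minus DU145, 5 of 10 were lower and none higher, against 40.3%. A498 minus 786O gave 1 of 9 (23.2% of all) and FaDu minus SAS 1 of 10 (30.3%). The renal lines against PC3 and DU145 gave 7 higher and 1 lower of 10 (43.4%), and the squamous lines 9 higher of 10 (42.9%). These contrasts use the mean of PC3 and DU145. In PTRF (A_23_P394064), SDPR, PRKCDBP and EHD2 the DU145 means (15.80, 8.26, 12.70 and 11.68) exceeded those of both squamous lines. Their squamous calls thus rest on the low PC3 values, and that of SDPR was lost with normexp (0.11, adjusted p = 0.585 by limma). PTRF in DU145 also exceeded both renal lines, and SDPR was dim in PC3 and both renal lines.

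Levels of CAV1 and CAV2 went together: of 13613 genes compared, CAV2 was the gene whose level correlated best with CAV1 (r = 0.96 over 24 control channels), followed by NMI (0.96), PTPLA (0.95), SERPINH1 (0.94) and SLC12A4 (0.94). LNCap weighs on these values, and without it the r of CAV1 and CAV2 was 0.80 over 23 channels. Levels of PTRF (A_23_P394064), PRKCDBP and EHD2 correlated with each other at r = 0.94 in each of the 3 pairs. Their 7 low PC3 channels are shared. For A_23_P394064 the likest levels were those of PARP6, GNAQ, STAT3, CTNNA1 and ZNF512 (r = 0.97 to 0.98). For A_33_P3280066, chosen as the brightest PTRF probe, they included ZNF799, MYO1C, SLC35E4 and ILDR1 (r = 0.95 each).

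STAT3 lies beside PTRF on chromosome 17, and the probes within 500 kb of each member were therefore looked at, a step added after the values were seen. Around PTRF, 38 of 48 other probes were above background in every DU145 channel, and 7 of these were not above background in any PC3 channel. Over all probes, 501 of the 20731 that were above background in every DU145 channel had this pattern (2.42%). The 7 probes were those of ZNF385C, KAT2A, RAB5C, GHDC, STAT5A and STAT3, the last by 2 probes. KAT2A, a histone acetyltransferase, read 2.84 on average in PC3 and 11.98 in DU145. STAT3, a transcription factor of cytokine signaling, read 3.11 and 1.99 in PC3 and 8.29 and 8.97 in DU145.

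The 7 probes lay on the same side of PTRF, at distances down to -376882 bases for ZNF385C. STAT5B was above background in 1 of 7 PC3 channels and DHX58 in 2 of 7, while ATP6V0A1, 119999 bases away on the other side, was so in 6 of 7 at a lower mean (5.16 against 12.34). Beyond them NKIRAS2 and NAGLU were above background in every PC3 and DU145 channel, with means of 9.07 and 8.75 in PC3. Within 500 kb of the other members no probe had this pattern, out of 6 each for CAV1 and CAV2, 4 for CAV3, 3 for SDPR, 14 for PRKCDBP and 19 for EHD2. In LNCap, MET, a receptor kinase gene 237548 bases from the CAV1 probe, read 5.31 against 14.39 in PC3 and 13.30 in DU145, still above background, and none of 5 neighbours of CAV1 above background in PC3 and DU145 was below it in LNCap. DNA copy number was not measured here.

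**Figure D2:**
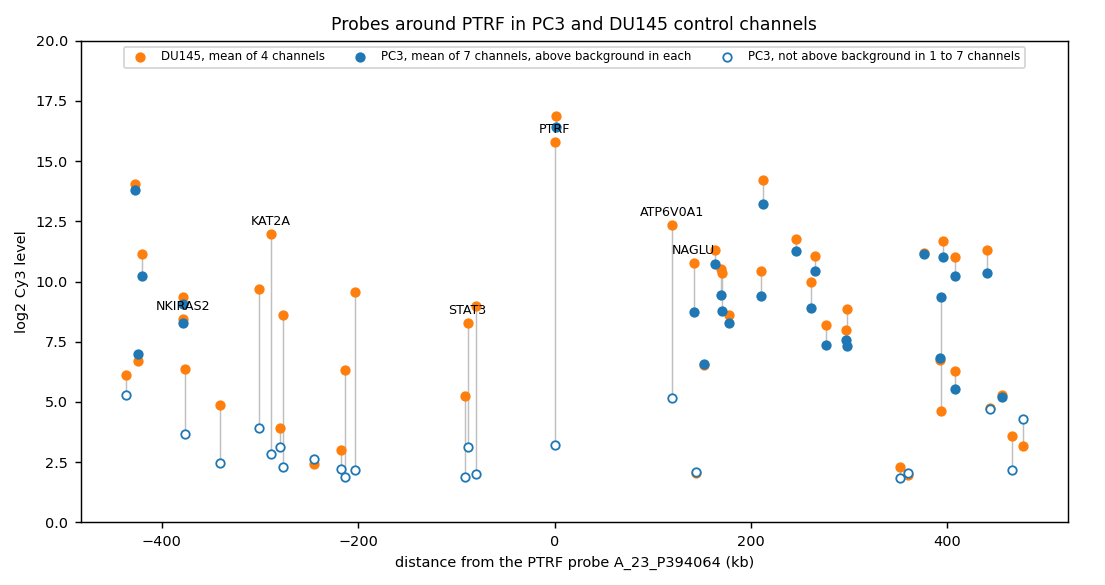
Level of 48 probes within 500 kb of the PTRF probe A_23_P394064, and of the PTRF probes at 0, in PC3 and DU145 control channels. The horizontal axis is the distance in kb, the vertical axis the mean log2 Cy3 level of 4 DU145 and 7 PC3 channels, and open points were not above background in 1 or more PC3 channels. KAT2A read 2.84 in PC3 and 11.98 in DU145, while NAGLU read 8.75 and 10.78.

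Treatments were then compared with their own controls. Ratios are log2 of treated over control RNA on the same array, and a value of -1 is a fall to 0.5 of the control. Calls come from 1 limma fit over all arrays with an adjusted p under 0.05, and for treatments with 1 array values are given with a size limit of 1 on the log2 scale and no test. By this fit si-CAV2 lowered CAV2 and called no other member. Genistein lowered CAV1 and EHD2, miR-27b lowered CAV1, and the remaining calls were 1 PTRF probe with genistein and the distal CAV2 probe with si-LAMB3.

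**Figure D3:**
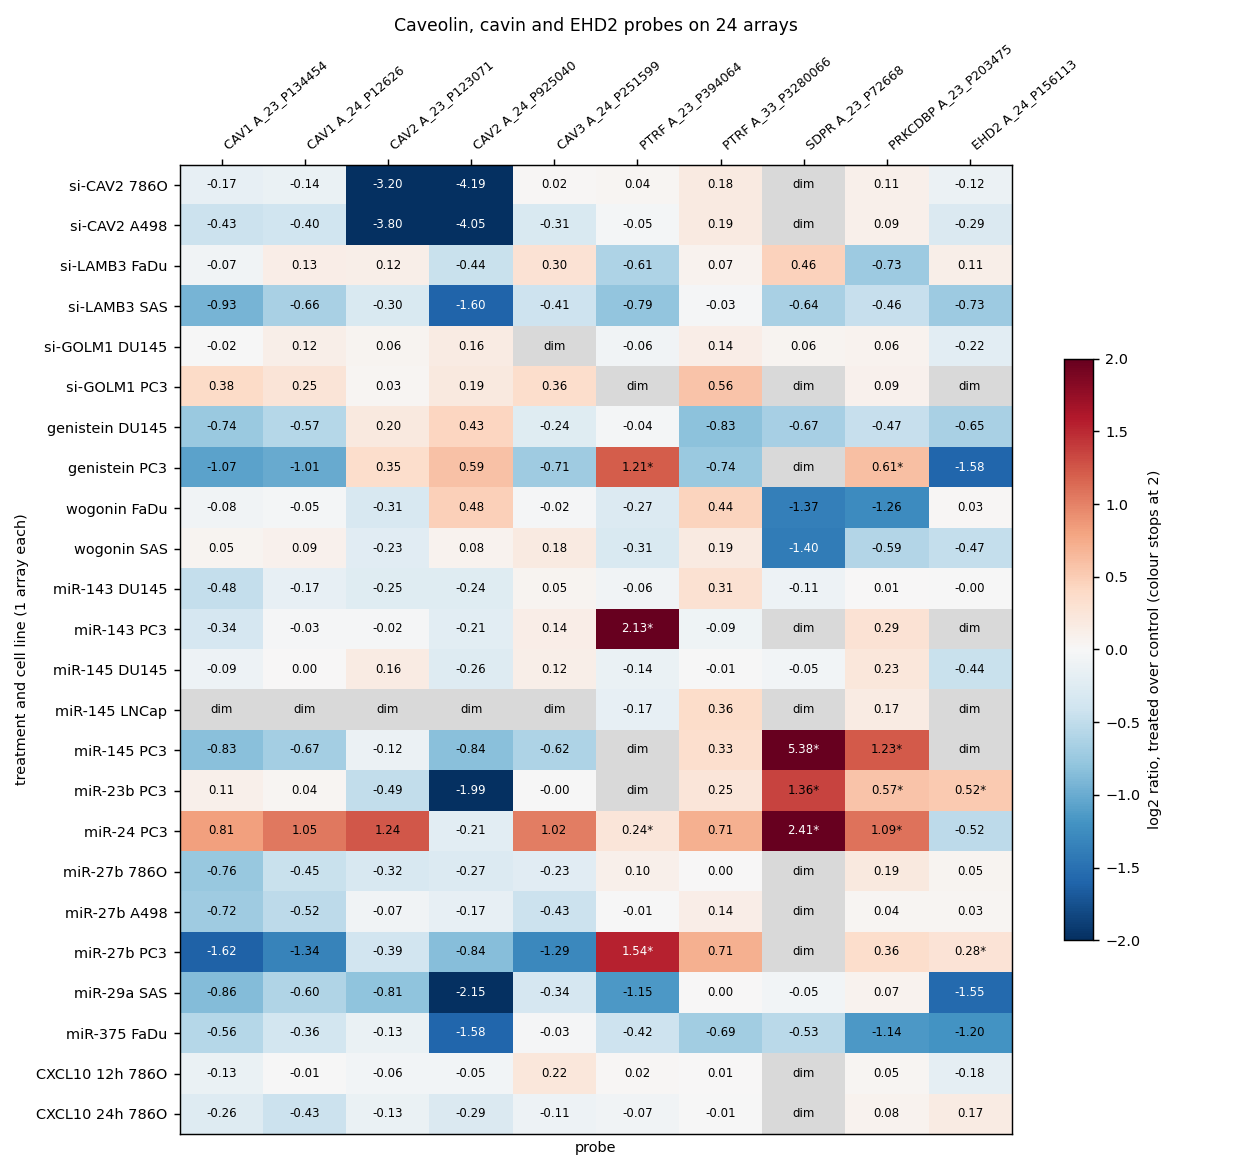
Log2 ratio of treated over control for 10 probes (columns) on 24 arrays (rows). Colour runs from blue (lower after treatment) to red (higher) and stops at 2. Grey cells marked dim were not above background in either channel, and a star marks values with 1 channel not above background. CAV2 read -3.20 to -4.19 with si-CAV2, and CAV1 was negative on all 3 miR-27b arrays.

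The siRNA against CAV2 gave the largest called change of any member. By A_23_P123071 the ratio was -3.80 in A498 and -3.20 in 786O, and by A_24_P925040 it was -4.05 and -4.19. The means were -3.50 (SE 0.16, adjusted p = 7.91e-07 by limma), or 0.0881 of the control, and -4.12 (SE 0.26, adjusted p = 9.20e-06). CAV2 was still above background in the treated channel, at 8.17 in A498 and 8.62 in 786O. Of 21795 probes tested 43 were called (0.197%), and 2 of these were the CAV2 probes.

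With CAV2 down, the other members kept within 0.5 of their control on the log2 scale. CAV1 read -0.43 in A498 and -0.17 in 786O (mean -0.30, 95% interval -0.85 to 0.25, adjusted p = 0.9996), and the other CAV1 probe -0.40 and -0.14. CAV3 read -0.31 and 0.02, PTRF -0.05 and 0.04, PRKCDBP 0.09 and 0.11, and EHD2 -0.29 and -0.12. SDPR was not above background in these lines. The intervals allow a CAV1 mean down to -0.85 and an EHD2 mean down to -0.71, so smaller changes cannot be told from none with 2 arrays.

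Genistein lowered CAV1 in both prostate lines. By A_23_P134454 the ratio was -1.07 in PC3 and -0.74 in DU145 (mean -0.90, SE 0.25, adjusted p = 0.0304 by limma), or 0.534 of the control. By A_24_P12626 it was -1.01 and -0.57, and the mean of -0.79 did not pass (adjusted p = 0.0616), though it did with normexp background correction (-0.79, adjusted p = 0.0163). The call was lost without either line (adjusted p = 0.254 without PC3 and 0.0704 without DU145) and when the mean of arrays of other treatments was subtracted (-0.56, adjusted p = 0.171), on which CAV1 was also mostly negative.

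EHD2 read -1.58 in PC3 and -0.65 in DU145 with genistein (mean -1.12, SE 0.23, adjusted p = 0.00816). In PC3 its control level was 5.79 and its treated level 4.20, close to background, and without PC3 the value was -0.65 (adjusted p = 0.189). CAV2 had the opposite sign at 0.35 in PC3 and 0.20 in DU145 and by its other probe at 0.59 and 0.43, and did not pass (adjusted p = 0.272 and 0.203). Both CAV2 probes were called higher after subtracting the mean of other treatments (0.70 and 1.35, adjusted p = 0.0178 and 0.00697) or of the same slide (1.498 and 2.33, adjusted p = 0.00127 and 0.00108), means that include the si-CAV2 arrays. CAV3 read -0.71 and -0.24, and SDPR and PRKCDBP read -0.67 and -0.47 in DU145, where they are expressed. Over both lines the PRKCDBP mean was 0.07 and did not pass (adjusted p = 0.894 by limma).

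PTRF gave no single answer with genistein. A_33_P3280066 read -0.74 in PC3 and -0.83 in DU145 (mean -0.78, SE 0.18, adjusted p = 0.0129), while A_23_P394064 read -0.04 in DU145, where it is bright, and was not above background in the PC3 control. Their mean was -0.10 (adjusted p = 0.837), and the call on A_33_P3280066 was lost without PC3 (adjusted p = 0.0837) and without DU145 (adjusted p = 0.0779). In total, 3 of 9 tested member probes were lower with genistein, where 15.5% of all probes were called.

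CAV1 was the member lowered by miR-27b. By A_23_P134454 it read -1.62 in PC3, -0.72 in A498 and -0.76 in 786O (mean -1.04, SE 0.21, adjusted p = 0.0359 by limma), or 0.488 of the control. By A_24_P12626 it read -1.34, -0.52 and -0.45, with a mean of -0.77 that did not pass (adjusted p = 0.135) and did with normexp (-0.73, adjusted p = 0.0439). All 3 lines had the same sign by both probes. The call was lost without any 1 of the lines, with values between -0.74 and -1.19, and the PC3 array lay on another slide and design than the 2 renal arrays.

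No other member was called with miR-27b. CAV3 read -1.29 in PC3, -0.43 in A498 and -0.23 in 786O (adjusted p = 0.323), and CAV2 -0.39, -0.07 and -0.32 (adjusted p = 0.423). EHD2 and PRKCDBP read between 0.03 and 0.36. Of 9 tested member probes 1 was called, where 1.07% of all were. PTRF by A_23_P394064 read 0.10 in 786O and -0.01 in A498. In PC3 it read 1.54 over a control that was not above background, a floor fold of 1.41.

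With si-LAMB3 the distal CAV2 probe was the member probe called. A_24_P925040 read -0.44 in FaDu and -1.60 in SAS (mean -1.02, SE 0.26, adjusted p = 0.0226), while A_23_P123071 of the same gene read 0.12 and -0.30. Without SAS the value was -0.44. The call was lost after subtracting other treatments (-0.32, adjusted p = 0.532 by limma), a mean that includes the si-CAV2 arrays. It was also lost after subtracting the same slide (-0.25, adjusted p = 0.655), which holds no si-CAV2 array. With arrays of its own design alone it was lost as well (adjusted p = 0.0774). PTRF by A_23_P394064 read -0.61 and -0.79 and PRKCDBP -0.73 and -0.46, neither called (adjusted p = 0.330 and 0.169), while with normexp both passed (-0.71 and -0.57, adjusted p = 0.000295 and 0.0103). CAV1 read -0.07 in FaDu and -0.93 in SAS, SDPR 0.46 and -0.64, and EHD2 0.11 and -0.73. Of 10 tested member probes 1 was called, where 13.4% of all were.

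Wogonin left CAV1 near its control, at 0.05 in SAS and -0.08 in FaDu. SDPR read -1.40 in SAS and -1.37 in FaDu and PRKCDBP -0.59 and -1.26. Neither passed (adjusted p = 0.385 and 0.0609), and PRKCDBP did pass with normexp background correction (-0.85, adjusted p = 0.00243). The distal CAV2 probe, at 0.08 and 0.48, was called higher after subtracting other treatments (1.10, adjusted p = 0.0378) or the same slide (1.49, adjusted p = 0.00911). The mean of other treatments includes the si-CAV2 arrays, and that of the same slide does not. None of 10 tested member probes was called by limma, where 7.13% of all were, and 1 had an unadjusted p under 0.05.

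The remaining treatments of 2 or 3 lines called no member by limma. With miR-145 only PTRF by A_33_P3280066 and PRKCDBP were measured in all 3 lines and could be tested, and none was called (1 with unadjusted p under 0.05), where 12.1% of all probes were. The PTRF probe read 0.33 in PC3, -0.01 in DU145 and 0.36 in LNCap, and was called after the mean of its slide was subtracted (0.61, adjusted p = 0.0265). CAV1 read -0.83 in PC3 and -0.09 in DU145 with this miRNA. The SDPR control channel in PC3 was not above background (2.36) and its treated channel read 7.74. The floor fold was 19.0 on this 1 array and 1 spot, while DU145 read -0.05. With miR-143, which shares a gene cluster with miR-145, none of 8 was called (1 unadjusted), against 0.0362% of all, and CAV1 read -0.34 in PC3 and -0.48 in DU145. The unadjusted p was that of PTRF by A_23_P394064 (mean 1.03, adjusted p = 0.962 by limma). This probe read -0.06 in DU145 and 2.13 in PC3 over a dim control, a floor fold of 1.43. With si-GOLM1 none of 6 was called (0 unadjusted), against 0.279%, and CAV1 read 0.38 and -0.02.

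Of the treatments with 1 array, miR-24 in PC3 stood out by its sign: 5 of 10 member probes were past 1, all higher, where 27.5% of all probes were past 1 in either direction. CAV1 read 1.05 by A_24_P12626 and 0.81 by A_23_P134454, CAV2 1.24 by A_23_P123071 and CAV3 1.02. The distal CAV2 probe read -0.21. SDPR and PRKCDBP had controls that were not well above background, with floor folds of 4.93 and 2.13. With normexp their log2 ratios were 0.53 and 0.25 and that of CAV3 0.71, all under the limit. The miR-27b array of the same slide, line and design read -1.62 for CAV1 and -1.29 for CAV3, so the caveolins had opposite signs on these 2 arrays.

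In PC3 with miR-23b, CAV1 read 0.11 and CAV2 -0.49, while the distal CAV2 probe read -1.99. SDPR had a floor fold of 2.44 over a dim control and a log2 ratio of 0.15 by normexp. By the main values 2 of 9 member probes were past 1, where 11.3% of all were. The control channels of the miR-23b, miR-24 and miR-27b arrays differed from each other by an SD of 0.20 to 0.21 over probes. Other PC3 control channels of 1 slide differed by 0.36 to 0.65 and those of different slides by 0.58 to 1.08. Whether the 3 arrays share 1 control RNA is not stated, and if so their ratios are not independent.

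In SAS with miR-29a, EHD2 read -1.55, the distal CAV2 probe -2.15 and PTRF -1.15 by A_23_P394064, while A_33_P3280066 read 0.00. CAV1 read -0.86 and -0.60 by its probes and CAV2 -0.81 by A_23_P123071. These were 3 of 10 member probes past 1, where 9.71% of all were, and PTRF stood at -0.91 after subtracting the same slide. In FaDu with miR-375, EHD2 read -1.20, PRKCDBP -1.14 and the distal CAV2 probe -1.58, again 3 of 10, where 23.6% were. After subtracting the same slide the distal CAV2 probe stood at -0.39 and EHD2 at -0.74, under the limit. After subtracting other treatments they stood at -0.89 and -0.92. Both subtracted means include the si-CAV2 arrays, on which the distal CAV2 probe read -4.05 and -4.19. CAV1 read -0.56 on the miR-375 array. CXCL10 gave no member past 1 at 12 h (0 of 9, against 2.37%) or at 24 h (0 of 9, against 2.51%), with CAV1 at -0.13 and -0.26.

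The CAV2 probes differed by slide. The distal probe minus the other ranged from -1.45 to 0.24 on the arrays of slide 1, from -1.50 to 0.80 on slide 2 and from -0.19 to 0.16 on slide 3. Slides 1 and 2 hold the earlier design, where the distal probe had 2 spots, and slide 3 the later, where it had 1. For CAV1 the difference stayed within 0.32 on all slides. Treatment and slide cannot be told apart here, since only miR-27b was run on 2 slides. Statements on CAV2 therefore rest on A_23_P123071 unless the distal probe is named.

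**Figure D4:**
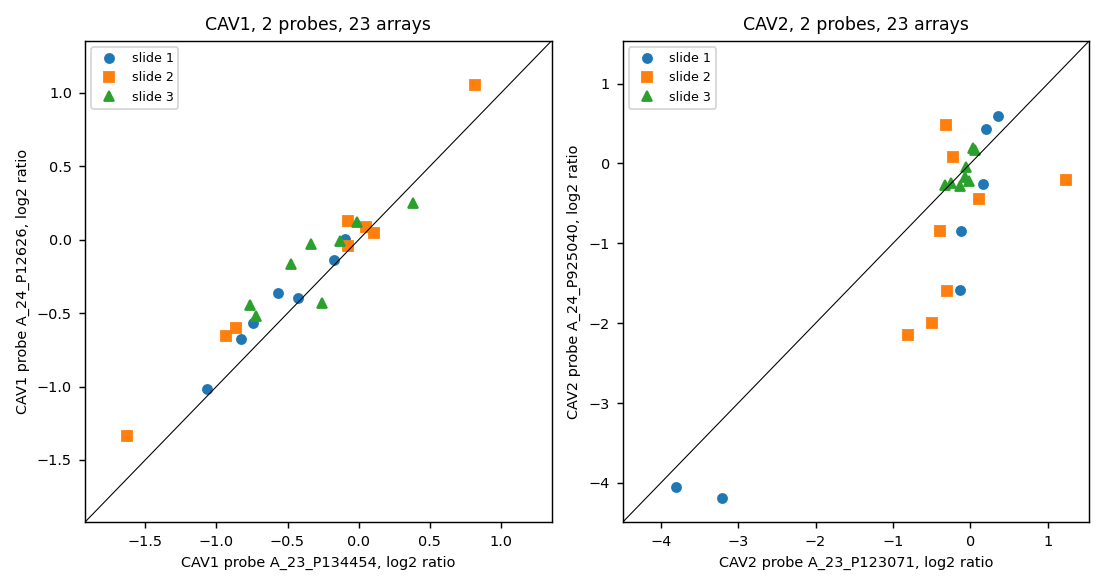
Log2 ratios of the 2 CAV1 probes (left) and the 2 CAV2 probes (right) against each other, 1 point for each of 23 arrays, marked by slide. The line is equality. CAV1 points lie within 0.32 of it, while CAV2 points of slide 2 lie up to 1.50 from it and those of slide 3 within 0.19.

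Across all arrays CAV1 was more often lower than higher. A_23_P134454 was measured on 23 arrays and was negative on 19 of them, from -1.62 to 0.81 with a median of -0.34, and A_24_P12626 on 16 of 23. A dye effect of the probe is part of these values and was not tested. CAV1 and CAV2 ratios correlated at r = 0.13 over 24 arrays and 0.48 over the 22 without si-CAV2. CAV1 and CAV3 ratios correlated at 0.78, and at 0.87 by the CAV1 probe A_24_P12626. All are across arrays of different treatments and lines. The gene whose ratio was most like that of CAV1 was CALM3 (r = 0.85), a calmodulin gene, followed by MAP2K4 (0.76), KIAA1147 (0.76), VPS4B (0.75) and PEBP1 (0.73). For CAV2 the list was led by TMEM30A (0.82) with the si-CAV2 arrays and by PGRMC2 (0.89), FEM1B (0.83), DNAJC6 (0.82), RRAS2 (0.82) and SMAD7 (0.80) without them.

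The 19 partner genes of caveolae were fixed as a list (pacsins, other EHD proteins, dynamins, flotillins, filamin A, Src family kinases and others). Its calls stand against shares of all probes called of 15.5% with genistein, 12.1% with miR-145, 13.4% with si-LAMB3 and 7.13% with wogonin. Of 17 measured, 1 was higher with genistein, PACSIN3, a pacsin that bends the caveolar neck (0.67, adjusted p = 0.0431 by limma), and with miR-145 PACSIN3 was lower (-0.60, adjusted p = 0.0350) and EHD4 higher (1.50, adjusted p = 0.00427) of 16. With si-LAMB3 the Src-inhibiting kinase CSK (0.47, adjusted p = 0.0469) and the receptor ROR1 (1.80, adjusted p = 0.00687) were higher of 17, and with wogonin MURC, cavin-4 of muscle (1.76, adjusted p = 0.0423), of 16. MURC and ROR1 were low in control channels of other arrays of these lines. MURC read 3.31 in SAS (miR-29a array, not above background) and 4.42 in FaDu (miR-375 array). ROR1 read 2.15 on that FaDu array, not above background. The medians of the list lay between -0.13 and 0.15 in the 8 treatments. No partner was called with si-CAV2 (of 15), miR-27b (15), miR-143 (17) or si-GOLM1 (16). Of all probes 0.197%, 1.07%, 0.0362% and 0.279% were called in these treatments.

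On the miR-24 array 6 of 17 partners were past 1, where 27.5% of all probes were, with PACSIN1 at 3.44 and FYN at 1.34 on the higher side and PACSIN3 (-2.05), FLNA (-1.93), SRC (-1.61) and ROR1 (-1.15) on the lower. With miR-375 FYN read -1.75 and PACSIN2 -1.42. Of 4 measured genes beside CAV2 and CAV1 on chromosome 7, TES was called with genistein, where 15.5% of all probes were. TES, a focal adhesion protein, was higher (0.97, adjusted p = 0.0236 by limma), opposite in sign to CAV1. No neighbour was called in the other 7 treatments. TES read -1.92 with miR-375, and MET -1.89 with miR-23b.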

How the data were processed

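RNA of treated and control cells was hybridised to 24 two-colour Agilent arrays. The deposited values are spot intensity per channel, background-subtracted and dye-normalised (linear and lowess) by Agilent Feature Extraction 10.7.3.1, and the log10 ratio of Cy5 over Cy3 that the software gave the authors. Annotation was on hg19. The deposited value table held the same log10 ratios (largest difference 0). Array precision is limited by their number.

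Log10 ratios were turned into log2, outlier spots dropped and spots of a probe averaged. A probe passed as above background when a share of 0.5 or more of its spots carried the flag, and entered the fit if measured on at least 2 arrays (28889 of 35649). limma 3.58.1 in R 4.3.3 fitted 14 treatment coefficients with 10 residual degrees of freedom, and p-values were adjusted by Benjamini-Hochberg over all probes tested. Levels were log2 Cy3 intensity after Aquantile scaling, fitted by line with slide as a block. For floor folds a dim channel got the lowest signal well above background of its array, or its own signal where higher. That signal is not a strict limit for a dim spot. All member probes are given. Partner genes are named where past the test or past a log2 ratio of 1, and likeness lists hold the 5 genes with the highest Pearson r, of which 1 is not reported here.

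Samples were grouped by their titles. The members and lists were chosen with earlier results of these data known, and the chromosomal windows and the likeness of the other PTRF probe were added after values were seen. The fits were tested on simulated data. Alternatives were background correction, centring, dim-probe filter, design, slide, array mean, probe averaging and leaving out each line or control channel. Whether channels of a line come from separate cultures is not stated, so p-values may measure technical spread. Sequences are from the scanner files, which give the probes, and RefSeq, which gives the miRNAs and promoters (GRCh38.p14), with 7 of 7 members matched by symbol.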

Additional observations from a re-analysis of the deposited data

Results flagged for a closer look

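Among 24 sets of 4 to 7 control channels of a line, 2 held a channel that stood apart from the rest, and chance gives about 1 in 20. The distal CAV2 probe A_24_P925040 read 6.22 in the PC3 control of the genistein array, while the other 6 PC3 channels read 7.57 to 8.06. PRKCDBP read 12.98 in the DU145 control of the genistein array, while the other 3 DU145 channels read 12.56 to 12.63. In 57 sets of 1 member probe under 1 treatment, no lines moved in opposite directions beyond the error given by the scanner software.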

How the results depend on the processing

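Of 3018 alternative values of 155 results, 2888 kept their direction and side of the threshold or moved less than their error. The CAV2 call with si-CAV2 held in 12 of 12 alternatives, the CAV1 difference of LNCap in 32 of 32, the PTRF difference of PC3 in 33 of 33 and the squamous CAV1 difference in 32 of 32. Leaving out 1 line or control channel, they ranged from -3.80 to -3.20, -9.79 to -9.62, -13.08 to -12.62 and 1.84 to 1.99. The renal CAV1 difference held in 33 of 34 (0.85 to 1.17 leaving out a channel) and was lost within slide 1 (0.69, adjusted p = 0.254 by limma).

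The treatment calls on CAV1 and EHD2 were less stable. Genistein CAV1 was lost after subtracting the mean of other treatments (-0.56), that of the same slide (-0.48) and with arrays of its own design alone (-0.90, adjusted p = 0.0592), and without either line (-1.07 to -0.74). Genistein EHD2 was lost against the same slide (-0.75, adjusted p = 0.0878) and without PC3 (-1.58 to -0.65 leaving out a line). The miR-27b CAV1 call was lost after subtracting other treatments (-0.74, adjusted p = 0.277) or the same slide (-0.90, adjusted p = 0.0774), within design (-0.74, adjusted p = 0.152), averaged over probes (-0.90, adjusted p = 0.0675) and without any line (-1.19 to -0.74). Member probes called with normexp were 3 in place of 1 with si-LAMB3, 1 in place of 0 with wogonin and 2 in place of 1 with miR-27b, and within slide 1 the renal contrast called 3 in place of 8. With a limit of 0.5 in place of 1, 6 in place of 3 probes passed for miR-375 and for miR-29a, 4 in place of 2 for miR-23b and 8 in place of 5 for miR-24. Requiring both channels above background left 1 for miR-23b and 3 for miR-24. Averaging the PTRF probes reversed A_33_P3280066 in renal (2.71) and squamous (2.34) lines minus PC3 and DU145, since A_23_P394064 is dim in PC3. Other causes were not tested. Treated and control RNA were paired on each array. Each group has 1 array, and treatments that share lines were not matched by line in the fit. Dim channels leave the PTRF (A_23_P394064), SDPR, PRKCDBP and EHD2 levels in PC3 dependent on the background correction.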
